A study of Mus musculus with 6 samples.

Results

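The astrocyte genes described here are 35 genes that mark astrocytes of the adult mouse brain, and they were found by their symbols in a table of 31763 genes. All 35 were present, and all 35 were among the 18970 genes with enough counts to be tested. The samples were medial prefrontal cortex (mPFC) from male C57BL/6J mice aged 8 to 10 weeks, in 2 groups of 3. Saline mice received 10 ml/kg and morphine mice 10 mg/kg, both by intraperitoneal injection, during training for conditioned place preference, in which a chamber is paired with a drug. The training was followed by about a week in the home cage without injections, and the tissue was taken after a last test of the preference. The comparison asks which transcripts of the mPFC differed between mice that had learned a morphine-paired place and mice that had received saline only, and the astrocyte genes are followed through it. The sources do not say whether each sample came from a single mouse, so p-values refer to the spread between samples, which may be technical.

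Astrocytes are the glial cells that take up glutamate and potassium released by neurons, turn glutamate into glutamine, supply metabolic fuel and cover blood vessels with water channel-bearing endfeet. They are coupled to each other by gap junctions and secrete lipid carriers and matrix proteins that act on synapses. After injury or inflammation they become reactive, a state known for a rise of the filament protein GFAP. In bulk tissue, fewer astrocytes and less RNA per astrocyte cannot be told apart.

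RNA was sequenced from rRNA-depleted, strand-preserving libraries, and 17984153 to 23529592 reads were counted on genes per library. Values between libraries are given below as CPM, counts scaled to a common library total with TMM, a normalization that uses the bulk of the genes. Every astrocyte gene had at least 35 counts in every library. Saline sample 1 stood apart: 16 of the 18 olfactory bulb markers tested, from a list drawn up after that library's leading genes had been seen, were over 2 times their level in every other library. Their summed level was 1484 CPM there and 532 to 571 CPM elsewhere. Results that rest on this library are given with and without it.

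The level of the astrocyte genes, compared between genes as FPKM, which divides by transcript length, spanned a wide range. Slc1a2, the main glutamate transporter of the forebrain, stood first with a mean of 449.8 FPKM over the 6 libraries, between 409 and 473 in single libraries. Glul, glutamine synthetase, followed with 337 FPKM. Sparcl1, a secreted matrix protein, and Cst3, a secreted protease inhibitor, came next with 229 and 206 FPKM. In all, 27 of the 35 genes had a mean over 10 FPKM, among them Gfap with 11.7 and Aqp4 with 19.4. The lowest levels were those of Sox9, an astrocyte transcription factor, at 6.99 FPKM, and of Bmpr1b, Cldn10 and Agt at 5.33, 4.76 and 1.23 FPKM. The libraries thus held the defining astrocyte transcripts at readily measured levels. They also held those of neurons, since Slc17a7, the vesicular glutamate transporter of cortical excitatory neurons, had 1215 to 1361 CPM. CPM is not divided by transcript length, so these values cannot be set against the FPKM values.

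**Figure D1:**
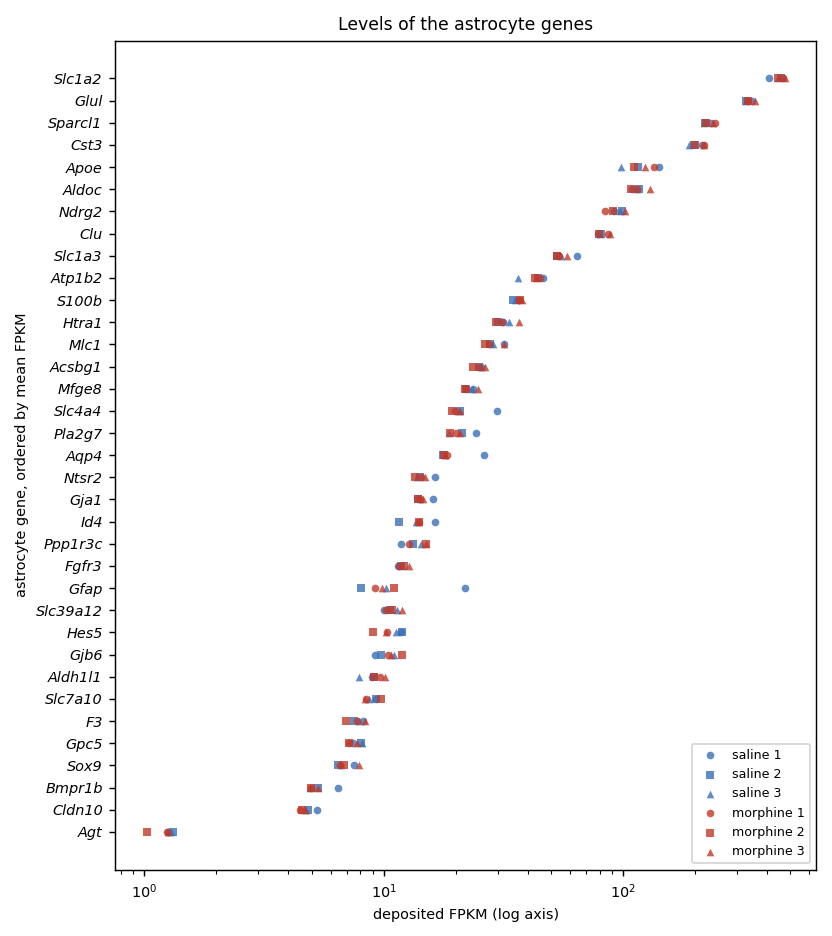
Level of each of the 35 astrocyte genes as deposited FPKM (log axis), with 1 point per library and the genes ordered by their mean. Slc1a2 is highest at a mean of 449.8 FPKM and Agt lowest at 1.23 FPKM. Most genes have their 6 points close together, while Gfap has saline sample 1 far to the right of the other libraries.

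GFAP transcription is known to respond to STAT factors, whose core motif is TTCNNNGAA, so the promoter windows of the astrocyte genes were searched for it on both strands. Windows ran from 250 bases before to 50 bases after each RefSeq transcription start (GRCm38.p6), and 30 of the 35 genes matched, with 40 windows. The motif was in 7 of these 40 windows (17.5%) and in 8.3% of all 32851 windows. Shown here are the matches of 4 genes, 5′ to 3′ on the gene's strand with the motif in capitals. They include Gfap, the gene with the widest spread between libraries, and Slc1a3, Agt and Acsbg1, whose matches lie outside annotated exons. In Gfap the motif spans the RefSeq start of transcription, beginning 2 bases before it, and overlaps an annotated exon. That start lies inside the GENCODE gene, whose 5′ end on the minus strand is at 102900912. Sites more than 250 bases before a start were not searched. Counted back from the start, the motif begins at 96 bases in Slc1a3, 172 in Agt and 26 in Acsbg1.
Gfap, chr11:102897194-102897222, minus strand: aggctattcaatgggggtgcTTCCAGGAA
Slc1a3, chr15:8710875-8710923, minus strand: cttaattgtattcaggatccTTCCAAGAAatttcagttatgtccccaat
Agt, chr8:124569850-124569898, minus strand: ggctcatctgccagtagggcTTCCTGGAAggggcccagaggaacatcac
Acsbg1, chr9:54661886-54661931, minus strand: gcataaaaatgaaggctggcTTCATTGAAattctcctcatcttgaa
The other motifs searched, on both strands, were GGCGCC, in 17.5% of member windows and 11.9% of all windows, and TTGGCA, the core of the NFI site, in 7.5% and 14.1%. The E box CACGTG was in 5% of member windows and 7.15% of all, and CACGAG, the N box bound by Hes proteins, in 7.5% and 6.47%. These shares rest on 2 to 7 member windows each and describe letters in a window, not binding.

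No astrocyte gene differed between morphine and saline at an adjusted p under 0.05 in edgeR's quasi-likelihood F test, where adjusted values ran from 0.638 to 0.981. Over all genes the same test called 0 of 18970 (0%), with 525 genes (2.77%) higher and 940 (4.96%) lower in morphine at an unadjusted p under 0.05, while DESeq2 called 16 genes. At that unadjusted threshold 1 astrocyte gene was higher, the folate enzyme gene Aldh1l1, and 1 was lower, the Notch effector gene Hes5, which as shares of 35 are close to the shares over all genes. The median log2 fold change, morphine over saline, was 0.01 over the astrocyte genes and -0.01 over all genes tested. Positive values were seen for 19 members and negative values for 16, and 24 members lay within 0.1 of 0.
For these samples, the data were precise enough to bound most of these differences. The median standard error (SE) of a member's log2 fold change was 0.079, and the 95% interval lay within a 1.3-fold change in either direction for 30 members and within a 1.5-fold change for 34. The exception to the wider bound was Gfap, with an interval from -1.02 to 0.24. The SE was derived from the log2 fold change and the F value of the test, and the interval from the SE. Both rest on the spread between samples, which may be technical.

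**Figure D2:**
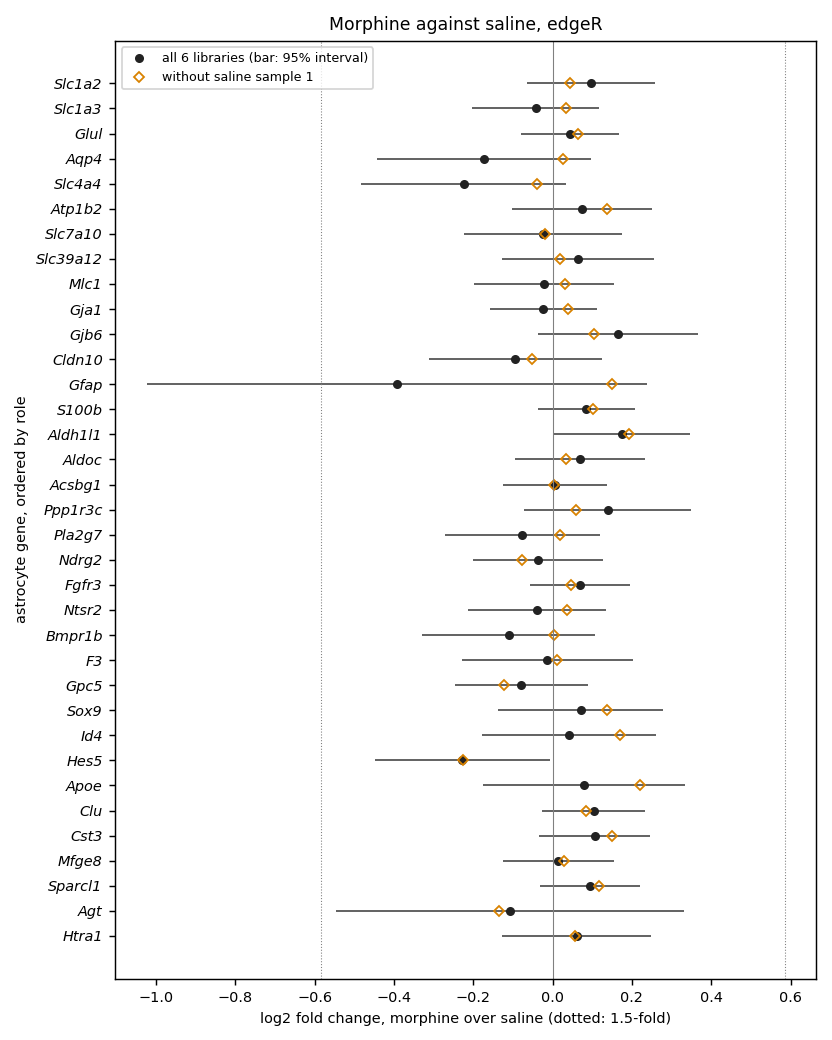
Log2 fold change of each astrocyte gene, morphine over saline, from edgeR with all 6 libraries (black points, bars give the 95% interval) and without saline sample 1 (open diamonds). The intervals of all members except Aldh1l1 and Hes5 include 0, and Gfap has the widest interval and the largest shift between the fits, from -0.39 to 0.15.

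Genes of glutamate uptake and recycling were at nearly the same level in both groups. Slc1a2 had 5276, 6059 and 5828 CPM in saline samples 1 to 3 and 6208, 5811 and 6331 CPM in morphine samples 1 to 3, a log2 fold change of 0.10 (SE 0.07, adjusted p = 0.736 in edgeR). Saline sample 1 was the lowest of the 6, and the groups overlapped. Slc1a3, the second glutamate transporter of astrocytes, had 538, 456 and 471 CPM in saline and 466, 449 and 508 CPM in morphine, a log2 fold change of -0.04 (SE 0.07). Here saline sample 1 was the highest library, opposite to Slc1a2. Glul was between 1083 and 1201 CPM in all libraries, with a log2 fold change of 0.04 (SE 0.06).

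Among the other membrane transport genes, 2 that serve water and bicarbonate movement had 1 library well above the rest. Aqp4, the water channel of the endfeet, had 160.6, 111 and 112 CPM in saline and 116, 110 and 114 CPM in morphine. Outside saline sample 1 the 5 libraries were within 110 to 116 CPM, and the log2 fold change moved from -0.17 (SE 0.12, edgeR adjusted p = 0.722) to 0.03 without it. Slc4a4, a sodium bicarbonate cotransporter, had 316, 227 and 223 CPM in saline and 219, 208 and 229 CPM in morphine. Its log2 fold change was -0.22 (SE 0.12, edgeR adjusted p = 0.672) with all libraries and -0.04 without saline sample 1. Atp1b2, a subunit of the sodium pump, was at 0.07, the zinc transporter gene Slc39a12 at 0.06, the neutral amino acid transporter gene Slc7a10 at -0.02 and Mlc1, a membrane protein of the endfeet, at -0.02.

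The junction genes were likewise close between the groups. Gja1, the major connexin of astrocytes, had 162, 143 and 145 CPM in saline and 148, 141 and 153 CPM in morphine, a log2 fold change of -0.02 (SE 0.06). Gjb6, the other astrocyte connexin, ran from 24.2 to 29.5 CPM in saline and from 28.3 to 31.8 CPM in morphine, at 0.17 (SE 0.09, edgeR adjusted p = 0.675). Its 2 lowest libraries were saline samples 1 and 2, and the ranges overlapped. Cldn10, a claudin, was at -0.09.

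Gfap, the filament protein gene of astrocytes, had the largest spread of any member, with its highest library at 2.65 times its lowest. Its counts were 2095 in saline sample 1 and 713 to 980 in the other 5 libraries. In CPM these were 90.4, 34.0 and 43.0 in saline and 39.4, 46.1 and 42.4 in morphine. Saline sample 1 was 1.96 times the highest other library, and the morphine libraries lay between or just above the other saline libraries. The group means were 55.8 ± 30.3 and 42.7 ± 3.35 CPM (SD, n = 3), which is -0.39 in log2 fold change (SE 0.28, edgeR adjusted p = 0.725). Without saline sample 1 it was 0.15 (edgeR adjusted p = 0.536). S100b, a calcium-binding protein gene, was the most even of the 35, with a highest library at 1.11 times the lowest. It had 53.6, 51.5 and 52.3 CPM in saline and 55.1, 54.7 and 57.1 CPM in morphine, so that every morphine library was above every saline library, by a log2 fold change of 0.09 (SE 0.06, edgeR adjusted p = 0.707). S100b was the only member with groups that did not overlap in this direction, as were 5.98% of all genes tested.

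**Figure D3:**
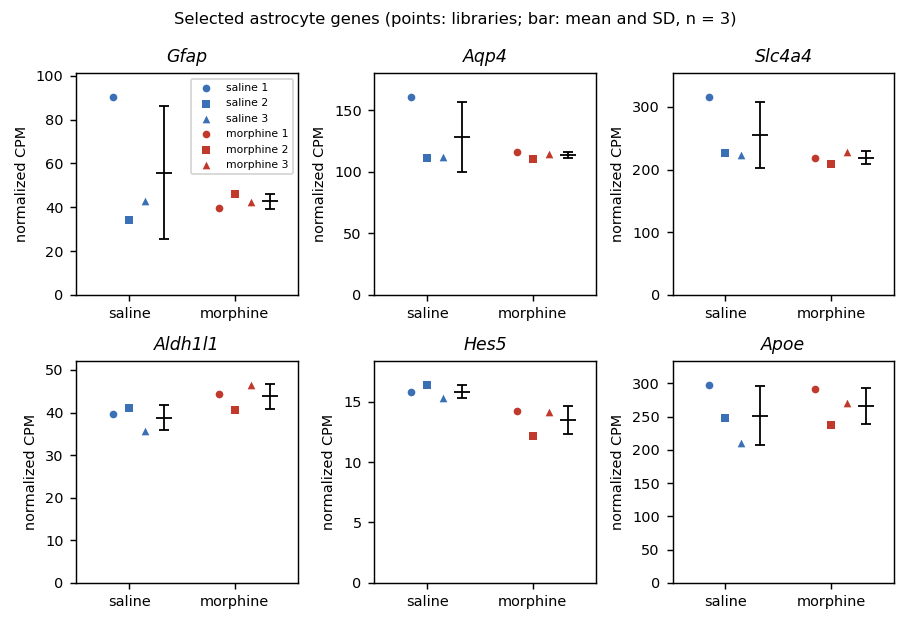
Normalized CPM of 6 astrocyte genes in each library (points), with the mean and SD of each group (n = 3) beside them and axes that start at 0. Gfap, Aqp4 and Slc4a4 have saline sample 1 above all other libraries, Aldh1l1 is slightly higher and Hes5 slightly lower in morphine, and Apoe varies among the saline libraries from 210 to 298 CPM.

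Of the metabolic genes, Aldh1l1, a folate enzyme often used to label all astrocytes, had the lowest p. It had 39.7, 41.2 and 35.6 CPM in saline and 44.2, 40.7 and 46.5 CPM in morphine. Morphine samples 1 and 3 were above all saline libraries, and morphine sample 2 was just below saline sample 2. The means were 38.8 ± 2.87 and 43.8 ± 2.93 CPM (SD, n = 3), or 0.17 in log2 fold change (SE 0.08, edgeR adjusted p = 0.638). This gene, at chromosome 6, 90486427 to 90600203 on the plus strand of GRCm38, overlaps exons of Gm15756 on the opposite strand, which had 8 to 26 counts per library, and of Gm45901 on its own strand, with 1 to 5 counts. Ppp1r3c, which directs a phosphatase to glycogen, was at 0.14 (SE 0.09), and Aldoc, the brain aldolase gene, at 0.07. Acsbg1, an acyl-CoA synthetase gene, was at 0.01, Ndrg2 at -0.04 and Pla2g7, a phospholipase of platelet-activating factor, at -0.08. All 6 intervals but that of Aldh1l1 included 0.

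Receptor and coreceptor genes showed no difference at an unadjusted p under 0.05. The growth factor receptor gene Fgfr3 was at a log2 fold change of 0.07 (SE 0.06), the neurotensin receptor gene Ntsr2 at -0.04, the bone morphogenetic protein receptor gene Bmpr1b at -0.11, the tissue factor gene F3 at -0.01 and the glypican gene Gpc5 at -0.08 (SE 0.08). Their summed level was 222, 216 and 213 CPM in saline and 211, 206 and 229 CPM in morphine, with the highest and the lowest library both in the morphine group.

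Hes5, a transcriptional repressor downstream of Notch, was the member with the lowest p. It had 15.8, 16.4 and 15.3 CPM in saline and 14.2, 12.2 and 14.2 CPM in morphine. All 3 morphine libraries were below all 3 saline libraries, which held for 7.32% of all genes tested in this direction and for 1 of 35 members. The means were 15.9 ± 0.540 and 13.5 ± 1.16 CPM (SD, n = 3), or -0.23 in log2 fold change (SE 0.10, edgeR adjusted p = 0.638). The gene lies at chromosome 4, 154960923 to 154962371 on the plus strand, where its exons overlap Gm20421 on the opposite strand, which had 39 to 76 counts against 221 to 367 for Hes5. Whether the counting used strand is not stated in the labels or methods, and reads of such partners may not be separable. In all, 9 members overlap an exon of a gene on the opposite strand, among them Slc1a2, whose antisense partner Gm13872 had 420 to 678 counts.
The other 2 transcription regulators differed less. Sox9 had 30.6, 26.8 and 27.3 CPM in saline and 27.7, 28.1 and 33.2 CPM in morphine, a log2 fold change of 0.07 (SE 0.09). Id4, an inhibitor of helix-loop-helix factors, was at 0.04 (SE 0.10), and its saline libraries ran from 45.0 to 61.8 CPM while its morphine libraries were within 53.9 to 55.0 CPM.

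Secreted protein genes were mostly on the positive side, with 6 of 7 above 0 and none at an unadjusted p under 0.05. Apoe, the lipid carrier of the brain, had 298, 247 and 209.8 CPM in saline and 291, 237 and 269.8 CPM in morphine, a log2 fold change of 0.08 (SE 0.11, edgeR adjusted p = 0.868). The saline libraries alone spanned more than the morphine libraries. Clu, another apolipoprotein gene, was at 0.10 (SE 0.06), Cst3 at 0.11 (SE 0.06) and Sparcl1 at 0.09 (SE 0.06). The serine protease gene Htra1 was at 0.06 and Mfge8, which bridges dying cells to phagocytes, at 0.01. Agt, the angiotensin precursor gene with the fewest counts, was at -0.11 (SE 0.20).

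Seen by library, morphine samples 3 and 2 held more of the highest and lowest values than any other library. Morphine sample 3 was the highest of the 6 libraries for 17 members (48.6%). This compares with 14.6% of all genes tested and 17.6% of those with a mean of at least 10 CPM. Morphine sample 2 was the lowest for 14 members (40%), compared with 13.7% in both of these sets. The median deviation of the members from their own mean was 0.08 in morphine sample 3 and -0.07 in morphine sample 2 on the log2 scale, and between -0.04 and 0.02 in the other libraries. These 2 libraries of 1 group thus lay on opposite sides of all saline libraries. Summed over the 35 genes, the level was 11005, 11402 and 11079 CPM in saline and 11727, 11036 and 12165 CPM in morphine. The means of 11162 ± 211 and 11642 ± 569 CPM (SD, n = 3) overlap, and most of the difference lay in Slc1a2, since the sums without it were 5441 ± 254 and 5526 ± 304 CPM.

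**Figure D4:**
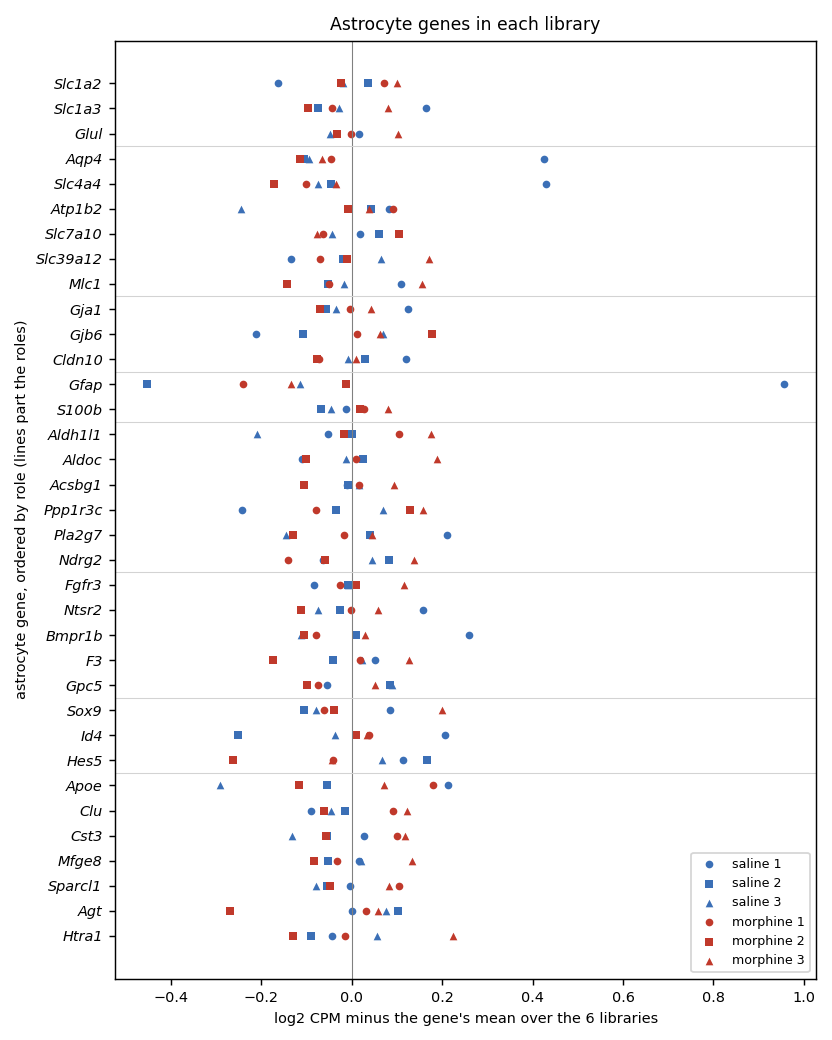
Log2 CPM of each astrocyte gene in each library, minus that gene's mean over the 6 libraries (saline in blue, morphine in red, sample numbers by shape, lines part the roles). Morphine sample 3 is the rightmost point for 17 genes and morphine sample 2 the leftmost for 14, and saline sample 1 lies far to the right for Gfap, Aqp4 and Slc4a4.

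Saline sample 1 was the highest library for 11 members (31.4%) and the lowest for 7 (20%), shares near those over all genes tested, 24.9% and 22.1%. Over 1.3 times every other library stood Gfap, Aqp4 at 1.39 times and Slc4a4 at 1.38 times, which are 3 of 35 (8.57%), compared with 2.66% of the 10064 genes tested with a mean of at least 10 CPM. Slc1a3, Gja1, Cldn10, Pla2g7, Ntsr2, Bmpr1b, Id4 and Apoe were also highest there, by smaller margins. The members lowest in it were Slc1a2, Gjb6, Aldoc, Ppp1r3c, Fgfr3, Clu and Slc39a12. The same library held the bulb markers, of which Eomes, a transcription factor of bulb projection neurons, had 462 counts there and at most 7 elsewhere. The part of that library's tissue content in these values was not tested.
Without saline sample 1, more members were above 0. In that fit, over 18671 genes, 28 members were positive and 7 negative, with a median of 0.04 compared with 0.00 over all genes. At an unadjusted p under 0.05, 6 members were higher and 0 lower, while 4.14% of all genes were higher and 7.53% lower. The 6 were Apoe at a log2 fold change of 0.22 (SE 0.07), Aldh1l1 at 0.19, Id4 at 0.17, Cst3 at 0.15, Atp1b2 at 0.14 and Sparcl1 at 0.12. None of them passed the adjusted threshold, with edgeR adjusted p = 0.171 for Apoe as the smallest, although 186 other genes did in that fit, 25 higher and 161 lower. With 2 saline libraries left, the saline mean of each of these genes rests on those 2 alone. Hes5 was at -0.23 in that fit, with an edgeR adjusted p of 0.436 and an unadjusted value just over 0.05.

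Further astrocyte genes, listed by function from general knowledge, gave a like picture. Of 13 transport genes for potassium, GABA, glycine and glutamine, 0 were past an unadjusted p of 0.05 in either direction, with a median log2 fold change of -0.02. Slc6a11, a GABA transporter, had 222 CPM in saline sample 1 and 100.4 to 110 CPM in the other libraries, so that its log2 fold change was -0.39 with that sample and 0.10 without it. The 21 genes for glycogen, lactate and lipid handling had a median of 0.01, and at that threshold 1 of them was higher and 2 were lower. The higher gene was Mt1, a metallothionein, with 18.5, 18.3 and 20.1 CPM in saline and 23.2, 20.6 and 21.5 CPM in morphine. Among those lower was Fabp7, a fatty acid binding protein of immature astrocytes, at a log2 fold change of -1.11. Fabp7 had 44.0 CPM in saline sample 1 and 9.38 to 10.3 CPM in all other libraries, and its log2 fold change was 0.01 without that sample.
Of 17 secreted synapse organizers and phagocytosis genes, Chrdl1, which promotes synapse maturation, was higher at 0.24 and Thbs1, a thrombospondin, lower at -0.62. Thbs1 was highest in saline sample 1, at 5.74 CPM, and without it was at -0.41 and no longer past the threshold. Of 22 receptor and surface genes, the sphingosine phosphate receptor gene S1pr1 was higher, at 0.12, and 0 were lower. Among 17 transcription and fate genes 0 were higher and 1 was lower. This was Sox8, a relative of Sox9 that is expressed in both astrocytes and oligodendrocyte lineage cells, with 41.1, 48.2 and 42.7 CPM in saline and 33.4, 38.5 and 35.4 CPM in morphine. All morphine libraries were below all saline libraries, at a log2 fold change of -0.30 (SE 0.08, edgeR adjusted p = 0.574). Without saline sample 1 it was -0.35 with an edgeR adjusted p of 0.0305. The medians of these 3 lists were -0.02, 0.00 and -0.04. None of the listed genes passed the adjusted threshold with all 6 libraries. Mt1 and S1pr1, at 0.18 and 0.11 without saline sample 1, were not past the unadjusted threshold there. Without that sample it was passed by 1 transport gene, 2 synapse organizers and 1 receptor, all higher, by 2 transcription genes, both lower, and by 0 genes of glycogen, lactate and lipid handling. Over all genes in that fit, 4.14% were higher and 7.53% lower.

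Genes of reactive astrocytes lay on both sides of 0, 16 positive and 13 negative. Of 38 listed, 29 had enough counts, with a median log2 fold change of 0.01, and at an unadjusted p under 0.05 the list held 2 higher genes and 1 lower. Cd44, a hyaluronan receptor, had 4.62, 4.20 and 3.68 CPM in saline and 7.02, 5.02 and 4.98 CPM in morphine. S1pr3, a sphingosine phosphate receptor, had 9.19, 8.20 and 7.66 CPM in saline and 11.7, 10.2 and 9.35 CPM in morphine. Both had every morphine library above every saline library, at log2 fold changes of 0.44 (SE 0.18) and 0.31 (SE 0.13) and an edgeR adjusted p of 0.622 and 0.619. Such a separation held for 2 of the 29 genes and for 5.98% of all genes tested. Sphk1, the kinase that makes sphingosine phosphate, was lower at -0.50, with its highest value, 5.61 CPM, in saline sample 1. Without that sample it was at -0.28 and no longer past the threshold. The summed level of the 29 reactive genes, Gfap not among them, was 222, 165 and 170 CPM in saline and 185, 188 and 181 CPM in morphine. Saline sample 1 had the highest sum. Without it, 28 of the list were tested, with a median of 0.16 compared with 0.00 over all genes. Of these, 5 were on the higher side of that threshold and 0 on the lower, while 4.14% of all genes were higher and 7.53% lower. Cd44 and S1pr3 were at 0.52 and 0.38 in that fit, with an edgeR adjusted p of 0.256 and 0.227.

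Marker lists of other cell types show what else varied between the libraries. Neuron markers were at a median log2 fold change of 0.09, with 0 of 15 past an unadjusted p of 0.05, and their sum was 11910 to 13034 CPM in all libraries. Oligodendrocyte markers were above 0 in all 15 cases, with a median of 0.13, and 1 of them, Opalin, was past that threshold. Their sum ran from 1319 CPM in saline sample 3 to 1836 CPM in morphine sample 2, the library in which 14 astrocyte genes had their lowest value. Without saline sample 1, 7 of 14 oligodendrocyte markers tested were higher, compared with 4.14% of all genes. Their median was 0.20, and Opalin, at 0.32, was not past the threshold. The oligodendrocyte sum was 1539 and 1319 CPM in saline samples 2 and 3 and 1557, 1836 and 1502 CPM in morphine. In the same fit 1 of 15 each of the neuron and the microglia markers was higher. With all libraries, microglia and endothelial markers had medians of 0.02 and 0.09 with none past the threshold. Of 10 oligodendrocyte precursor markers 0 were higher and 1 was lower, Cspg4, which is also on the list of 12 mural cell markers, where Rgs5 was higher, at 0.13 with all libraries and 0.12, no longer past the threshold, without saline sample 1. The medians of these 2 lists were -0.02 and -0.03.
Saline sample 1 had the highest sum for meningeal fibroblast markers (142 CPM compared with 105 to 127 CPM) and for choroid plexus and ependyma markers (14.2 CPM compared with 5.01 to 6.07 CPM). Of 11 meningeal markers tested 0 were past the threshold with all libraries. Without saline sample 1, 2 of them were higher and 0 lower (4.14% and 7.53% of all genes), with a median of 0.08. With all libraries, 1 of 4 choroid plexus and ependyma markers was lower, Aqp1. It had 7.12 CPM in saline sample 1 and 0.306 to 0.801 CPM elsewhere, and a log2 fold change of 0.08 without that sample. Of 18 bulb markers tested 8 were lower and 0 higher, with a median of -1.03, and without saline sample 1 the median was 0.11. In that fit 3 were higher and 1 lower (4.14% and 7.53% of all genes). The lower one was Dcx, with 169, 79.8 and 85.1 CPM in saline and 67.1, 72.3 and 64.7 CPM in morphine. Its log2 fold change was -0.71 with all libraries and -0.28 without saline sample 1, there with an edgeR adjusted p of 0.0308. What part the content of these other cell types had in the astrocyte values was not tested.

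**Figure D5:**
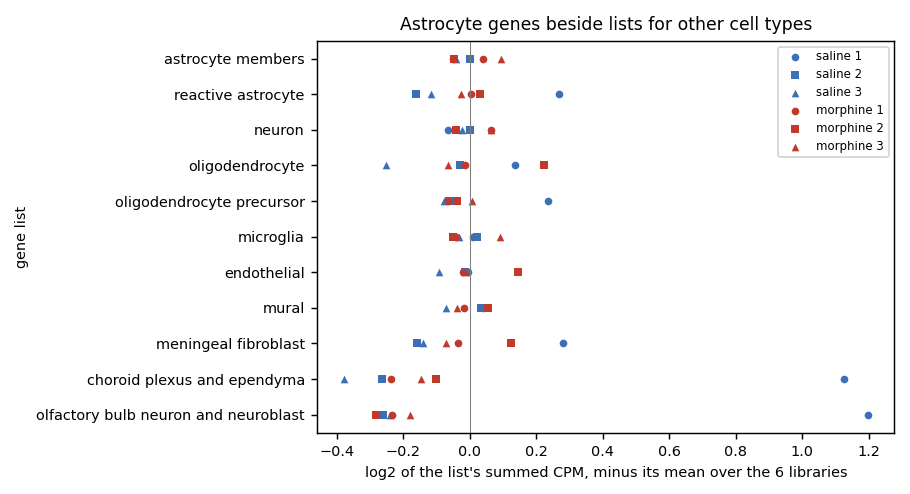
Summed CPM of each marker list in each library, as log2 minus the list's mean over the 6 libraries (saline in blue, morphine in red, sample numbers by shape). The astrocyte genes stay within 0.1 of their mean, while saline sample 1 lies over 1 log2 unit to the right for olfactory bulb and for choroid plexus and ependyma markers.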

How the data were processed

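RNA of 3 saline and 3 morphine mPFC samples was sequenced, and groups were taken from the sample labels. The authors deposited, for each gene and library, a raw read count and an FPKM value, the latter from StringTie per the methods. The submitters' processing notes list, without roles, the build mm10 and the tools HISAT2 2.1.0, StringTie 1.3.3, HTSeq 0.11.2, cutadapt 1.9.3, limma 3.40.6, DESeq 1.8.3 and DESeq2 1.26.0. Deposited counts were used for all tests and deposited FPKM for levels between genes.

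Genes needed 10 counts or more in 3 or more of the 6 libraries. After TMM normalization they were tested two-sided in edgeR 4.0.16 (R 4.3.3), with treatment as the only term and Benjamini-Hochberg adjustment over all genes tested. The fit was tested on simulated data. Coordinates are those of GENCODE M21 (GRCm38), and exon overlaps were taken from it. Promoter windows came from RefSeq. No test was made over a list of genes.

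Every astrocyte gene is named. Full values are given for those with an unadjusted p under 0.05 or with groups that do not overlap, and for Gfap, Aqp4, Aldh1l1, Slc1a2, Slc1a3, Gja1, S100b and Sox9. From each other list up to 3 genes of lowest p are named, and 1 such gene is not reported here. Eomes and the per-library values of Slc4a4, Gjb6, Apoe and Id4 were chosen after their values were seen. The members and the other lists, written from general knowledge, were chosen with earlier results of these data known.

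Alternatives were RLE factors, DESeq2 1.42.0, no filter, 10 counts or more in every library, a block for the replicate number, limma 3.58.1 on log2(FPKM + 0.1) and log2(FPKM + 1), and each library left out. In a chi-square test of counts between replicates, all pairs differed by more than sampling noise (2.91 to 14.7 per degree of freedom).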

Additional observations from a re-analysis of the deposited data

How the results depend on the processing

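The median log2 fold change of the astrocyte genes stayed within -0.04 to 0.06 when each library was left out, and its sign turned, at -0.01, on the FPKM settings. Of 2 astrocyte genes at an unadjusted p under 0.05, 1 remained with RLE factors (Aldh1l1), 1 was found by DESeq2 (Slc4a4, lower) and 1 on each of the 3 settings with limma on FPKM (Hes5), at pseudocounts of 0.1 and 1 and without a filter. Without a filter on low counts there were 4, namely Aldh1l1 and, on the lower side, Gfap, Aqp4 and Slc4a4. With the replicate number as a block there were 0. The numbers did not pair the samples (correlations of deviations 0.02, 0.00 and -0.02). Leaving out each library gave 0 to 6, with 0 without morphine sample 1 or 3, 4 without morphine sample 2 (Aldh1l1, Clu, Cst3 and Sparcl1) and 6 without saline sample 1. Without saline sample 2, Gfap was at -0.65 and Slc4a4 at -0.30, both past that threshold. The share of all genes past it was taken only for the main fit and for the fit without saline sample 1. Member counts under the other settings have no such share beside them, so they are not a result about the members.

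Over all genes, the count at an adjusted p under 0.05 was 0 with edgeR, 16 with DESeq2 (3 higher, 13 lower), 279 without a filter (53 higher, 226 lower), and 0 to 186 when each library was left out, with 186 without saline sample 1. Among 490 pairs of an astrocyte gene and an alternative, 442 kept their side of the threshold and moved by less than their SE, 18 lost and 16 gained an unadjusted p under 0.05, and 14 moved further without crossing it. The causes of these changes were not tested.

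With 3 libraries a group, the 95% intervals of 5 members reached beyond a 1.3-fold change, and Gfap and Agt had the widest. The sources do not say whether samples were single mice.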
